A study of Mus musculus with 9 samples.

Results

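The genes described are 8 of the 24015 genes listed in each deposited table. They were taken by symbol and code for voltage-gated potassium channel subunits. Kcnq3 and Kcnq5 are subunits of the M-current, and Kcnh1, Kcnh2, Kcnh3, Kcnh4, Kcnh5 and Kcnh7 belong to the ether-a-go-go (Eag) family. RNA came from microdissected dentate gyri of individual C57BL/6 mice aged 8 weeks, in groups labelled E0, E1 and E4 with 3 mice each. The design concerns the response to neuronal activation, and the labels state neither the stimulus nor the unit of the number after E. Known of the study is that E0 mice were unstimulated and that the numbers are hours after electroconvulsive stimulation. Strain, age and tissue were the same in all groups.

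The M-current is a slow potassium current that does not inactivate. It opens near the threshold of the action potential and holds back repetitive firing. Its channels need the membrane lipid PIP2 to open, and receptors that act through Gq and phospholipase C, such as muscarinic receptors, shut them by using that lipid up. The Eag family falls into Eag channels (Kcnh1, Kcnh5), Erg channels (Kcnh2, Kcnh7) and Elk channels (Kcnh3, Kcnh4), which differ in how fast and at which voltage they open and close.

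Kcnq5 changed most among these genes, and its directions in E1 and E4 were opposite. Against E0 it was 4.81-fold higher in E1 and 1.69-fold lower in E4 in the authors' deposited tables. Kcnq3 followed the same order with smaller changes, and Kcnh1 the reverse one. Of the 8 genes, 2 were raised, 2 were lowered and 4 were not called in E1, at an adjusted p below 0.05 in the authors' deposited table. In that comparison 35.5% of 15660 genes tested were called, 20.6% being raised and the rest lowered. In E4, 1 was raised, 6 were lowered and 1 was not called in the authors' deposited table. There 39.0% of 14455 genes tested were called, and of all those tested 20.7% were raised and 18.3% lowered. The median log2 fold change of the 8 genes was 0.27 in E1 and -0.59 in E4 in the authors' deposited tables, beside 0.02 and -0.01 over all genes tested. Other ion channel genes fell as much or more in E4. Among 80 with mean counts of at least 50 in both comparisons, Kcnq3, Kcnh2 and Kcnh3 ranked 18, 21 and 25 from the lowest in E4. Kcnh1 ranked 22 from the highest. In bulk RNA, fewer cells of a type and less RNA per cell cannot be told apart.

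**Figure D1:**
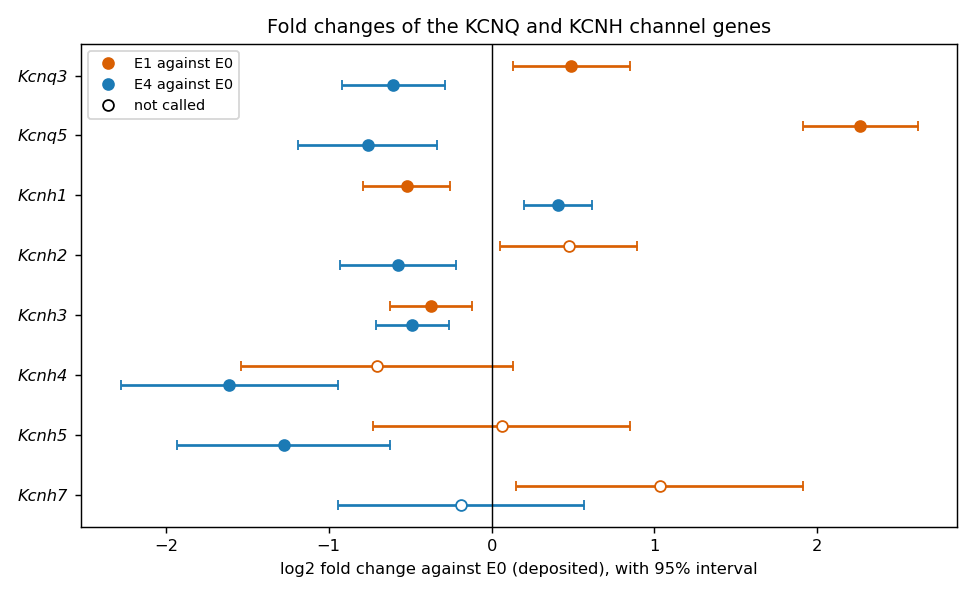
Deposited log2 fold changes against E0 (horizontal axis) of the 8 channel genes, E1 in orange and E4 in blue, with 95% intervals from the deposited standard errors. Filled points passed an adjusted p of 0.05. The E1 point of Kcnq5 at 2.26 lies farthest from 0, and its E4 point lies at -0.76.

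The start regions of Kcnq5 are shown because it changed most, that of Kcnh1 because it moved in the reverse order, and that of Kcnh4 because it had the largest fall. Windows reach from 250 bases before to 50 bases after each annotated start, from RefSeq on GRCm38.p6, which is not the build mm9 of the files. Such windows were at hand for 6 of the 8 genes. They are written in the direction of the gene, and capitals mark GC boxes (GGGCGG) and the E-box CACGTG on either strand. The windows of Kcnq5 lie at chr1:21962601-21962900 and chr1:21961893-21962192 on the minus strand. That of Kcnh1 lies at chr1:192190527-192190826 on the plus strand, and that of Kcnh4 at chr11:100759729-100760028 on the minus strand.
Kcnq5, first start: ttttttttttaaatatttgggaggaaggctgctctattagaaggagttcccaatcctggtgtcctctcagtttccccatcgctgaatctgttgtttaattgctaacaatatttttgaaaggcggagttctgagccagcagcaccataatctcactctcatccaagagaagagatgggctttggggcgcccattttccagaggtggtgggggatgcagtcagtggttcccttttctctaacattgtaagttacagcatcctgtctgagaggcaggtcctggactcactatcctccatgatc
Kcnq5, second start: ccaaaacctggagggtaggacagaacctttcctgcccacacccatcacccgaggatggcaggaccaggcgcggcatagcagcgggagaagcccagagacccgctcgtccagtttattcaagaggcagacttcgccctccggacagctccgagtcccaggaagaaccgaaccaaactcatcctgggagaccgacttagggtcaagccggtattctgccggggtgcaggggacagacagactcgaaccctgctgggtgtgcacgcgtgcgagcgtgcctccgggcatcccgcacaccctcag
Kcnh1: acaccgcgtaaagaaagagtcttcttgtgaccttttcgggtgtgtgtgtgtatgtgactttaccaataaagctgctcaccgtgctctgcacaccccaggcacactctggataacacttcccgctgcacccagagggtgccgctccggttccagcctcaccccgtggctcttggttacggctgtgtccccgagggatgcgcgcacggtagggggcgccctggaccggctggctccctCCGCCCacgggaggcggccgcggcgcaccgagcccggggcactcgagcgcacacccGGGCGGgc
Kcnh4: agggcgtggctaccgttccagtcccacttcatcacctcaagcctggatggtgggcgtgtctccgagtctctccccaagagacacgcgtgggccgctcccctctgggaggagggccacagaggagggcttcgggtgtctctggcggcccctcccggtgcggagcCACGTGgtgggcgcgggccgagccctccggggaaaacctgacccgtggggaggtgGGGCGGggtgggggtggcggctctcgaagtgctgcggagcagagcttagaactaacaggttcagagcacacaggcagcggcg

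Neither Kcnq5 window held an AP-1 site (TGANTCA), a cyclic AMP response element (TGACGTCA), its core (TGACG) or an Egr site (GCGNGGGCG) on either strand. Over 32851 mouse windows of the same length, 7.81% held the AP-1 letters, 1.79% the full element, 20.8% the core and 5.55% the Egr site. The core is contained in the full element. GC boxes were in the windows of Kcnh1, Kcnh2, Kcnh4, Kcnh5 and Kcnh7 and in 35.7% of all windows. These windows had 65.3% to 74.3% G and C, beside a median of 52.7% over all windows. The highest content was that of the Kcnh2 window, at chr5:24329542-24329841. It lies at a start inside the gene, which reaches to 24351604 at its upstream end on the minus strand. No window at that end was at hand. The share with GC boxes among windows of like content was not computed. The E-box was in the window of Kcnh4 and in 7.15% of all, and that of Kcnh5 held 1 core. The first Kcnq5 window had 46% G and C and 3 CpG, the second 62.7% and 20, beside medians of 52.7% and 7 over all windows.

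The tables hold no value per mouse, but for 6 of the 8 genes whole reads per library could be recovered from the deposited means. A gene read once moves a mean by a fixed step per library, and these steps give the size factors. The reads were then solved so that they fit both tables with the same E0 reads. Values per library below were recovered in this way. Within a group they are ordered by falling depth, since libraries carry no replicate number, and the scale differs between the tables. For Kcnq5 and Kcnq3 the search was held to log2 ratios of group means within 0.06 of those predicted from the deposited folds, so their recovered ratios are no independent check of them. Within the range of reads per library used, 0.0112 and 0.0219 chance solutions were expected for these genes, and 0.109 and 0.216 in a broader range, which gave the same reads. The E0 libraries held about 6140000 to 10960000 reads in genes, the E1 libraries 1940000 to 4760000 and the E4 libraries 10020000 to 13550000. For genes whose mean count reached 50, the median SE was 0.17 in E1 and 0.14 in E4 in the authors' deposited tables.

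Kcnq5 codes for a subunit that carries M-current in the hippocampus, alone or with Kcnq3. It had 83.6, 95.6 and 115 normalised counts in the E0 libraries and 381, 559.7 and 534 in the E1 libraries. The lowest E1 library stood above the highest E0 library, and the means were 98.0 ± 15.7 and 492 ± 96.6 (SD, n = 3). The log2 fold change was 2.26 ± 0.18 (SE), with an adjusted p of 1.88e-34, in the authors' deposited table. On the scale of the other table the E0 libraries had 158, 180.1 and 218 normalised counts and the E4 libraries 82.2, 81.5 and 153. All E4 libraries stood below all E0 libraries, with 1 of them close to the lowest E0 value. The log2 fold change was -0.76 ± 0.22 (SE), with an adjusted p of 0.00198, in the authors' deposited table. The log2 ratio of recovered means was -0.81 with all libraries and -1.18 without the E4 library at 153. The difference between E4 and E1 was -3.02 ± 0.28 on the log2 scale, 8.14-fold lower in E4, with an adjusted p of 1.05e-24 in the normal test of the 2 deposited fold changes. Among 80 ion channel genes whose mean counts reached 50 in both comparisons, Kcnq5 ranked 5 from the highest in E1 and 11 from the lowest in E4.

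Kcnq3 codes for the subunit that joins other KCNQ subunits to form M-channels. It had 158, 124 and 163 normalised counts in the E0 libraries and 192, 239 and 199.9 in the E1 libraries. All E1 libraries stood above all E0 libraries, by less than the range within either group. The log2 fold change was 0.49 ± 0.18 (SE), with an adjusted p of 0.0232, in the authors' deposited table. With the trend of fold changes over transcript length and GC content removed, it was 0.18 with an adjusted p of 0.491, so the rise was called only without that step. Against 299, 233 and 309 normalised counts in E0 on the other scale, the E4 libraries had 206, 180.9 and 157, all of them lower. This was a log2 fold change of -0.60 ± 0.16 (SE), with an adjusted p of 0.000825, in the authors' deposited table. E4 was 2.13-fold lower than E1, a log2 difference of -1.09 ± 0.24 with an adjusted p of 5.16e-05 in the normal test.

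**Figure D2:**
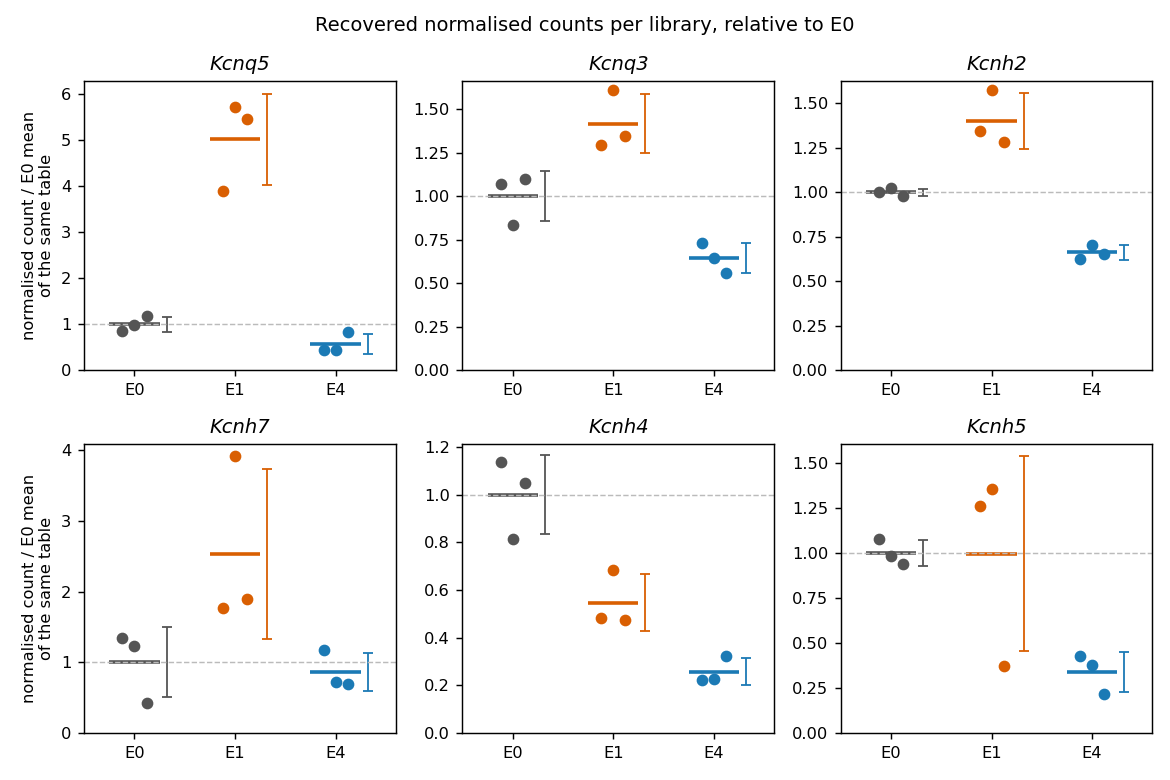
Recovered normalised counts of 6 channel genes per library (points), divided by the E0 mean of the same table (vertical axis, no unit). Horizontal bars are group means, whiskers span 1 SD either side over 3 libraries, and the E1 and E4 points come from separate tables. The 3 E1 points of Kcnq5 lie far above its E0 points, and the E4 points of Kcnh4 lie well below its E0 points.

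The longest run of CA or GA repeats on either strand was taken over all annotated transcripts of a gene. It was 42 bases for Kcnq3 and 44 for Kcnh7, and none of the other 6 genes had one of 30 bases or more. Genes with such a run were raised in E1 in 37.7% of 1915 cases and genes without one in 18.1% of 12976. In E4 the shares were 21.5% and 20.7%. The part of these runs in the E1 values of Kcnq3 and Kcnh7 was not tested.

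Kcnh1 and Kcnh5 code for the Eag channels, which open on depolarisation with little inactivation. Kcnh1 had too many reads to be solved per library. Its approximate group levels were 517 normalised counts in E0 and 360.0 in E1, and 985 in E0 and 1308 in E4 on the other scale. It fell in E1, with a log2 fold change of -0.52 ± 0.14 (SE) and an adjusted p of 0.000595 in the authors' deposited table. It rose in E4, with 0.41 ± 0.11 (SE) and an adjusted p of 0.000608 in the authors' deposited table. E4 was 1.91-fold higher than E1, a log2 difference of 0.93 ± 0.17 with an adjusted p of 6.98e-07 in the normal test. It was the only one of the 8 genes that was higher in E4 than in E1 by that test, and 4 were lower. Over 12769 genes 36.7% were called in that test, 17.7% higher and 19.0% lower.

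Kcnh5 was read rarely. It had 22.9, 20.9 and 19.97 normalised counts in E0 and 26.8, 28.9 and 7.89 in E1, where the last value rests on 3 reads in the shallowest library. The E1 libraries stood on both sides of E0, and the log2 fold change was 0.06 ± 0.40 (SE), with an adjusted p of 0.929, in the authors' deposited table. The E4 libraries had 17.1, 15.2 and 8.70 normalised counts, all below the 43.3, 39.4 and 37.9 of E0. Their log2 fold change was -1.28 ± 0.33 (SE), with an adjusted p of 0.000621, in the authors' deposited table. The difference between E4 and E1 was -1.34 ± 0.52 on the log2 scale, with an adjusted p of 0.0316 in the normal test.

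Kcnh2 and Kcnh7 code for the Erg channels, of which Kcnh2 is best known for ending the action potential of the human heart. Kcnh2 had 78.0, 79.8 and 76.6 normalised counts in E0, the smallest relative spread among the 6 genes, and 105, 123 and 99.96 in E1. The E1 libraries all stood above E0, yet the log2 fold change of 0.47 ± 0.22 (SE) was not called, with an adjusted p of 0.0731 in the authors' deposited table. In E4 it had 92.2, 104 and 96.6 normalised counts beside 148, 150.2 and 145 in E0, with no overlap. Kcnh2 fell, with a log2 fold change of -0.57 ± 0.18 (SE) and an adjusted p of 0.00562, in the authors' deposited table. E4 was 2.06-fold lower than E1, with an adjusted p of 0.00104 in the normal test.

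Kcnh7 had 13.1, 11.9 and 4.16 normalised counts in E0 and 17.2, 38.0 and 18.4 in E1, the lowest E0 value resting on 5 reads. The E1 libraries stood above E0, and the log2 fold change of 1.03 ± 0.45 (SE) had an adjusted p of 0.0590 in the authors' deposited table. With the trend over transcript length and GC content removed it was 0.52, with an adjusted p of 0.405. The log2 ratio of recovered means was 1.34, and 0.87 without the E1 library at 38.0. In E4 it had 21.4, 13.3 and 12.6 normalised counts beside 24.7, 22.4 and 7.89 in E0, and the groups overlapped. The log2 fold change was -0.19 ± 0.39 (SE), with an adjusted p of 0.753, in the authors' deposited table. Kcnh7 shares 696 exon bases with Gca on the other strand, and Gca was raised in E1 with a log2 fold change of 0.78 and an adjusted p of 0.0194 in the authors' deposited table. Whether counting used the strand is not given in the sources used here, so reads of both genes may not be separable. Kcnq5 likewise shares 167 exon bases with the noncoding Gm26580 on the other strand.

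Kcnh3 and Kcnh4 code for the Elk channels, and mice without Kcnh3 are known to have hyperexcitable forebrain neurons. Kcnh3 fell in both comparisons. Its approximate levels were 547 normalised counts in E0 and 423 in E1, and 1028 in E0 and 734 in E4 on the other scale. The log2 fold change in E1 was -0.37 ± 0.13 (SE), with an adjusted p of 0.0141, in the authors' deposited table. In E4 it was -0.49 ± 0.11 (SE), with an adjusted p of 0.000115, in the authors' deposited table. The difference between E4 and E1 was -0.12, with a 95% interval from -0.45 to 0.22 and an adjusted p of 0.633 in the normal test.

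Kcnh4 had 25.2, 18.1 and 23.3 normalised counts in E0 and 10.7, 15.2 and 10.5 in E1. All E1 libraries stood below E0, and the log2 fold change of -0.70 ± 0.43 (SE) was not called, with an adjusted p of 0.2005 in the authors' deposited table. In E4 it had 9.29, 9.47 and 13.5 normalised counts beside 47.7, 34.1 and 44.2 in E0, from 37 and 114 reads in all. The E4 libraries lay far below E0, with a log2 fold change of -1.61 ± 0.34 (SE) and an adjusted p of 1.45e-05 in the authors' deposited table. The log2 ratio of the means was -1.96, larger than the deposited estimate. Of the 3 rarely read genes Kcnh4, Kcnh5 and Kcnh7, 2 did not overlap E0 in E1 and 2 did not in E4. Of 299 genes with 15 to 40 mean counts in the E4 table, 36.1% did not overlap in E1 and 31.8% in E4. No such share was computed for genes with mean counts like those of Kcnq5, Kcnq3 and Kcnh2. How common the lack of overlap is at their counts was therefore not tested.

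Per kilobase of the longest coding transcript, the approximate E0 levels on the scale of the E4 table spanned a wide range. Kcnh3 stood highest with 278 normalised counts per kilobase and Kcnh1 next with 136. Kcnh2 had 34.8, Kcnq5 26.2 and Kcnq3 23.5, levels whose order rests on the transcript length chosen. Kcnh4 had 10.1, Kcnh5 9.39 and Kcnh7 1.36 normalised counts per kilobase. The spread over libraries of Kcnq5 and Kcnq3 is larger than the gap between them, as is that of Kcnh4 and Kcnh5.

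**Figure D3:**
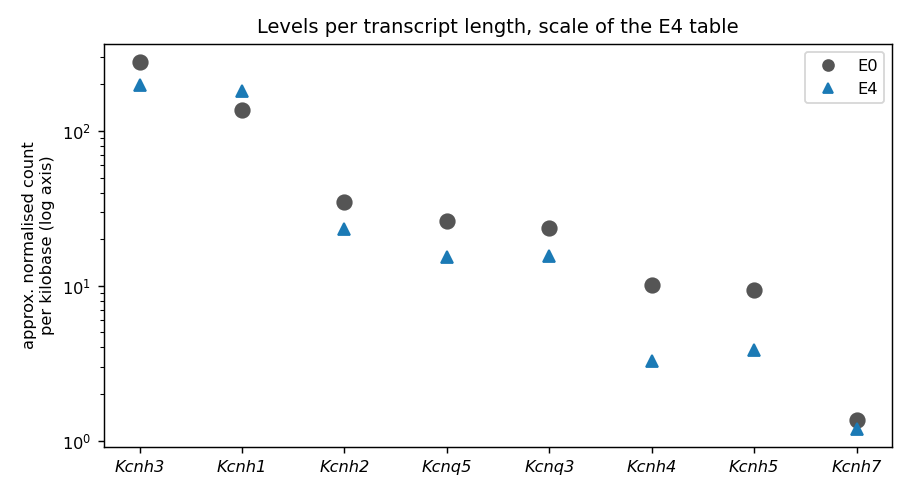
Approximate normalised counts per kilobase of transcript (vertical log axis) of the 8 channel genes in E0 (grey circles) and E4 (blue triangles), on the scale of the E4 table, without error bars. Kcnh3 at 278 and Kcnh1 at 136 in E0 lie above the other genes, and the triangle lies above the circle for Kcnh1.

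Of other genes of both families, Kcnq1, Kcnh6 and Kcnh8 are given here, and none was called in E1 in the authors' deposited table. Kcnh6, an Erg channel gene, had 8, 9 and 3 reads in E0, 17, 6 and 1 in E1 and 1 read in each E4 library. Kcnq1 had 5 reads over the E0 group and 12 over the E4 group, and Kcnh8, an Elk channel gene, had 9 and 19. None of them has an adjusted p for E4 in the authors' deposited table.

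The ion channel genes nearest to 3 members by the distance between their pairs of log2 fold changes were found among 80 channel genes. Nearest to Kcnq5 was Kcnc2, a fast delayed rectifier gene of interneurons, with 2.33 in E1 and -0.44 in E4 in the authors' deposited tables. Kcnj2 and Kcnj16, inward rectifier genes, came next at distances of 0.98 and 1.02. Nearest to Kcnh4 were the leak channel gene Kcnk2 at a distance of 0.33, then Scn3b and Kcnip2 at 0.80 each. Nearest to Kcnh5 were Scn2b at 0.19, Kcnv1 at 0.28 and Kcnk9 at 0.42. Likeness here is over 2 comparisons that share their E0 mice. The SEs of Kcnh4 were 0.43 in E1 and 0.34 in E4, and those of Kcnh5 were 0.40 and 0.33. Both genes lie below the mean count of 50 asked of the channel genes, so the order of their neighbours is uncertain.

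Genes that shut the M-current moved in both directions. Of 19 tested receptors, G proteins, phospholipases, kinases and calmodulins, 10 were raised and 2 lowered in E1, and of 18 tested in E4, 4 were raised and 5 lowered, in the authors' deposited tables. Over all genes tested, 20.6% were raised in E1, and 20.7% were raised and 18.3% lowered in E4. The list was shortened after its values were seen and carries no test. Their median log2 fold change was 0.43 in E1 and -0.13 in E4 in the authors' deposited tables. The kinase gene Prkcb rose by 1.01 in E1 and was at -0.47 in E4 on the log2 scale of the authors' deposited tables. Akap5, the anchor that brings kinase C to the channel, was at 1.48 in E1 and -0.88 in E4 in the authors' deposited tables, both called. Chrm1 and Chrm3 code for muscarinic receptors, and Chrm3 was named after its values were seen. Chrm1 was at -0.84 in E1 and 0.71 in E4 and Chrm3 at 1.53 and -1.02 in the authors' deposited tables, all called.

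**Figure D4:**
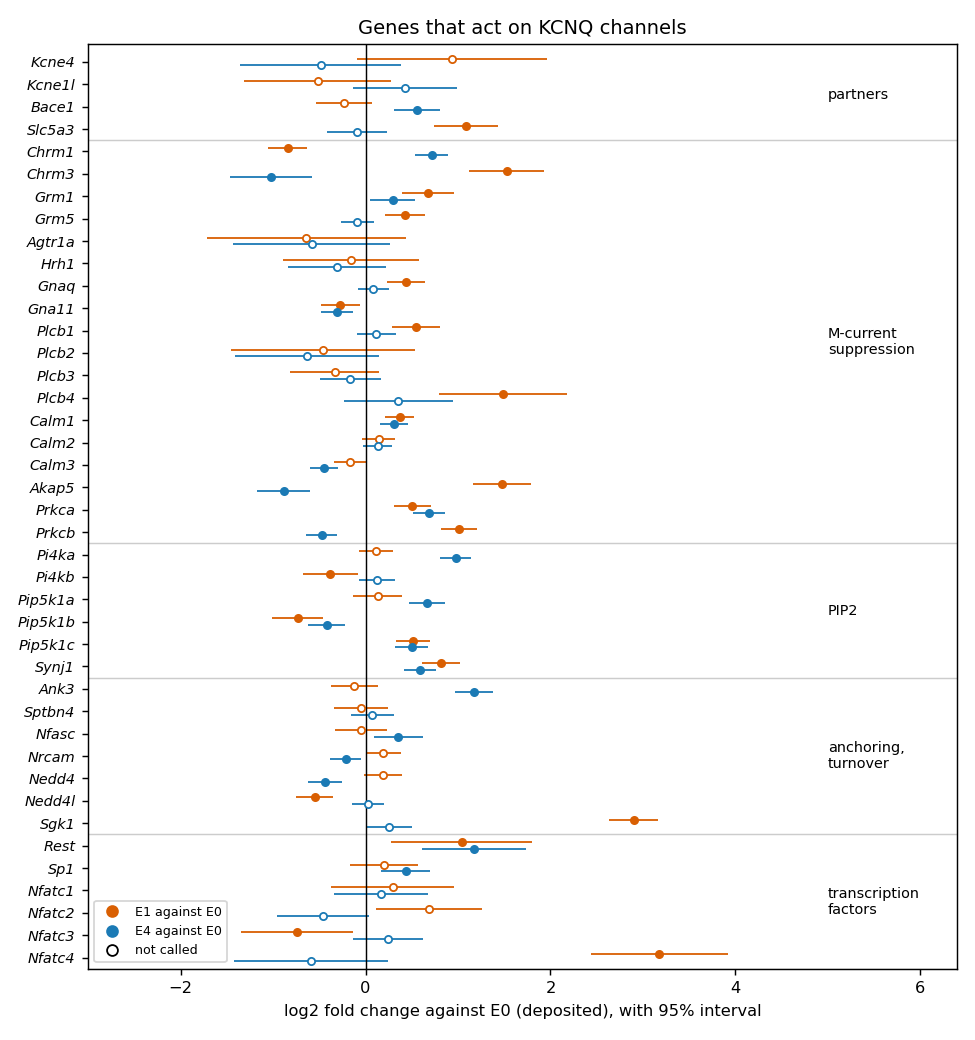
Deposited log2 fold changes against E0 (horizontal axis) with 95% intervals for genes that act on KCNQ channels, grouped by role, E1 in orange and E4 in blue. Filled points passed an adjusted p of 0.05, and genes without an adjusted p in both comparisons are left out. The E1 points of Nfatc4 at 3.18 and Sgk1 at 2.898 lie farthest to the right.

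Among 6 kinases and phosphatases that set PIP2, 2 rose, 2 fell and 2 were not called in E1, and 4 rose and 1 fell in E4, in the authors' deposited tables. The lipid kinase genes Pi4ka and Pip5k1a rose in E4 with log2 fold changes of 0.97 and 0.66 and were at 0.11 and 0.13 in E1, not called, in the authors' deposited tables. The phosphatase gene Synj1 rose in both, by 0.82 and 0.59 on the log2 scale of the authors' deposited tables. Among 7 genes of anchoring and turnover, 1 rose and 1 fell in E1 and 2 rose and 2 fell in E4 in the authors' deposited tables. Of all genes tested, 35.5% were called in E1, 20.6% being raised and the rest lowered. In E4, 20.7% of all genes tested were raised and 18.3% lowered. Whether the counts of both lists differ from these shares was not tested. Sgk1, a kinase known to raise KCNQ currents, had a log2 fold change of 2.898 in E1 and 0.25 in E4, called in E1, in the authors' deposited tables. Ank3, the anchor at the axon initial segment, was at -0.12 in E1, not called, and rose by 1.17 in E4 in the authors' deposited tables. Nedd4l, a ubiquitin ligase gene, fell in E1 with -0.55 in the authors' deposited table.

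Among auxiliary subunits and other partners, 1 of 5 tested rose in E1 and 1 of 4 in E4, and none fell, in the authors' deposited tables. Over all genes tested, 20.6% were raised in E1 and 20.7% in E4. The genes that rose were Slc5a3 and Bace1, and no tested Kcne subunit gene was called. The inositol transporter gene Slc5a3 and the protease gene Bace1 code for known partners of KCNQ channels. Slc5a3 rose in E1 by 1.09 and Bace1 rose in E4 by 0.55 on the log2 scale of the authors' deposited tables. Kcne4 was at 0.94 ± 0.52 (SE) in E1 and not called in the authors' deposited table. Of 6 transcription factors known to act on KCNQ genes, 2 rose and 1 fell in E1 and 2 rose in E4 in the authors' deposited tables. Whether the counts of these factors differ from the shares over all genes was not tested. Rest, a repressor of KCNQ genes, rose by 1.04 and 1.17, and Nfatc4 was at 3.18 in E1 and -0.59 in E4, called in E1, in the authors' deposited tables. Sp1 rose in E4 by 0.43 in the authors' deposited table.

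The tissue label was checked against cell type markers, and those named below were chosen after their values were seen. All 7 granule neuron markers were detected. So were all 5 CA3 and CA1 pyramidal neuron markers, with mean counts of 24.1 to 605 in the comparison of E4 with E0. Detection alone therefore does not set the dentate gyrus apart from the rest of the hippocampus. Of the 7 granule neuron markers, 6 fell and 1 rose in E1, and 5 fell and 2 rose in E4 in the authors' deposited tables. Of all genes tested, 35.5% were called in E1, 20.6% being raised and the rest lowered. In E4, 20.7% of all genes tested were raised and 18.3% lowered. Whether the count of any marker list differs from these shares was not tested. In E4, Prox1 and C1ql2 rose, by 0.41 and 0.52, and Dsp, C1ql3, Calb1, Tdo2 and Lct fell, all at -0.78 or lower on the log2 scale of the authors' deposited tables. Kcnh1, which fell in E1 and rose in E4, moved as Prox1 and C1ql2 did and not as the other granule neuron markers. The pyramidal neuron marker Fibcd1 moved in that order too, at -0.77 in E1 and 1.48 in E4, both called, in the authors' deposited tables. Of 5 CA3 and CA1 pyramidal neuron markers, 1 rose and 1 fell in E1 and 1 rose and 2 fell in E4. Of 3 mossy cell markers, 1 rose in E1 and none was called in E4, in the authors' deposited tables.

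Of 7 interneuron markers, 5 rose in E1 and 1 in E4 and none fell in the authors' deposited tables. The shares raised over all genes tested were 20.6% in E1 and 20.7% in E4, and no marker count was tested against them. Gad2 was at 1.57 in E1 and 0.03 in E4 and Slc32a1 at 1.25 and -0.30 in the authors' deposited tables. Neither was called in E4. Gad1 rose in both comparisons, by 0.49 and 0.31 on the log2 scale of the authors' deposited tables. Lhx6 and Sst rose in E1 only, and Pvalb and Vip were called in neither comparison. Of 3 immature neuron markers, 2 rose and 1 fell in E1 and 1 rose in E4, and of 4 endothelial markers 2 rose in E1 and none was called in E4, in the authors' deposited tables. Of 5 astrocyte markers, 3 fell in E1 and 1 in E4 in the authors' deposited tables. Of 4 choroid plexus markers, Kl and Ttr had mean counts of 134 and 26.4 in the E1 table, and Folr1 and Kcnj13 were near 0 at 0.283 and 0.233. Kl fell in E1, at -1.03 in the authors' deposited table. The part of these markers in the channel results was not tested.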

How the data were processed

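RNA-seq of 9 mice was read from 2 tables of the authors' own comparisons. The submitters' processing notes name TopHat2, DESeq2 and mm9. The signal column holds the mean of counts over size factors, the log2 columns the fold change and SE, and the score their ratio, per the file headers. The p-value columns are deposited by the authors, with Benjamini-Hochberg adjustment. The authors' DESeq2 folds are shrunken.

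E4 was set against E1 by the difference of both folds over the root of the summed squared SEs (two-sided normal p, Benjamini-Hochberg over 12769 genes with mean counts of at least 10), ignoring the shared E0. Approximate group levels came from mean and fold. Python 3.11.15, numpy 2.4.6 and scipy 1.17.1 were used.

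Whole reads per library were solved from the deposited means. The group of a library came from the sign of the authors' folds, and E0 was the group shared by both tables. In 299 of 300 genes of 15 to 40 mean counts 1 solution fitted. Tolerances and ranges of the search were adjusted over several tries whose outcomes were seen. For Kcnq3 and Kcnq5 the allowed reads per library were narrowed in this way to 0.4 to 2.0 times the group mean, and at most 0.1 expected chance solutions were accepted. A broader range tried before gave the same single solution for each but would not have been accepted. Kcnh1 and Kcnh3, above 400 mean counts, were not tried.

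The members and lists were chosen with earlier results of these data known. Named are the members, up to 3 genes per pathway list with the smallest adjusted p and 3 nearest channel genes to each of 3 members. Some genes of the lists are not reported here, so the lists were shortened after values were seen and their counts cover the genes left. The samples are individual mice per the labels.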

Additional observations from a re-analysis of the deposited data

Results flagged for a closer look

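For 5 genes the change from E1 to E4 passed the test of the difference itself. On the log2 scale it was -1.09 for Kcnq3, -3.02 for Kcnq5, 0.93 for Kcnh1, -1.05 for Kcnh2 and -1.34 for Kcnh5. Kcnq3, Kcnq5 and Kcnh1 were called in both of the authors' deposited tables with opposite signs. Kcnh2 and Kcnh5 were called in E4 only.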

How the results depend on the processing

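The number of the 8 genes called in E1 was 4 and became 2 at a threshold of 0.01 and 2 with Benjamini-Yekutieli adjustment, which left Kcnq5 and Kcnh1. It was 3 with the length and GC trend removed. The other counts stayed within 1.5 times, and no called direction turned under the alternatives run. Without single libraries, the log2 ratios of 2 uncalled results crossed 0, that of Kcnh5 in E1 ranging from -0.29 to 0.39 and that of Kcnh7 in E4 from -0.58 to 0.06. Kcnh3 in E1 had an adjusted p of 0.145 and Kcnh2 in E4 of 0.057 with Benjamini-Yekutieli adjustment. With an assumed correlation of 0.5 between both fold changes, Kcnh4 and Kcnh7 also differed between E4 and E1, with adjusted p of 0.0387 and 0.0091. Ratios from recovered reads and their values without each library were added after seeing the data and carry no test. Leaving out a replicate in the authors' model was not run, since the tables hold no counts per library. No paired analysis was possible because the columns carry no replicate numbers. Depth limits Kcnh4, Kcnh5 and Kcnh7, whose groups hold 24 to 114 reads.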
